A study of Mus musculus with 2 samples.

Results

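The genes described here are 43 components of the machinery that docks, primes and fuses secretory vesicles, followed in the adrenal gland of 14-day-old mice. They were taken by gene symbol from a list of exocytosis genes that was drawn up with earlier results of these data known, and all 43 were found among the 55536 genes of the deposited tables. Total RNA-seq was measured in 2 libraries, biological replicates 1 and 2, which form 1 group: male mice of strain B6CASTF1/J, an F1 hybrid, with no treatment named and 300 ng of starting RNA per library. The labels give a separate tissue sample to each library but 1 donor record to both, and the tag 3x Males in each sample name is left undefined, so it may or may not count pooled animals. One label field gives both libraries the same number after that tag and another gives them different ones. There is no second condition, so the replicate spread is the only difference that can be described and no test was made. The tables do not separate the alleles of the parental strains, and a whole gland mixes cortex, medulla, vessels, nerves and blood.

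Regulated exocytosis works in steps. Rab GTPases and their effectors tether a vesicle to the plasma membrane, Munc18, Munc13 and CAPS proteins prepare it, and SNARE proteins on vesicle and target membrane zip together to fuse them when a synaptotagmin binds calcium; NSF and its adaptor alpha-SNAP then take the SNARE complex apart. In the adrenal medulla this machinery releases adrenaline, noradrenaline and peptides from the dense-core granules of chromaffin cells, while several of its members serve constitutive traffic in every cell.

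Expected counts summed to 32963248 in replicate 1 and 36260745 in replicate 2. Chromaffin markers were high in both libraries: Th, the first enzyme of catecholamine synthesis, had 133 and 131 TPM, and the granule protein Chga had 408 and 421 TPM. All 7 chromaffin genes summed to 1318 TPM in replicate 1 against 1347 TPM in replicate 2. The 5 cortex genes summed to 4947 and 5404 TPM. The libraries stood apart in other markers, since 4 liver genes summed to 236 TPM in replicate 1 but 4138 TPM in replicate 2, and 4 lymphocyte genes to 50.1 and 6.54 TPM. The 6 neuron genes summed to 15.9 and 6.46 TPM. Sums for mast cell (4 genes, 5.79 and 5.76 TPM), platelet (3 genes, 12.1 and 8.46 TPM), Schwann (4 genes, 16.8 and 24.7 TPM) and brown fat genes (2 genes, 1119 and 1239 TPM) differed less in ratio. Ins2, Gcg and Iapp of the endocrine pancreas were at 0 in both libraries. Of the 3 preganglionic nerve genes, Chat was at 0 in both and the 3 together reached only 0.04 and 0.03 TPM.

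The finding that a sequence shows best is the choice between the alternative exons of Snap25, the target-membrane SNARE of neurons and neuroendocrine cells. The exons lie in tandem on the plus strand of chromosome 2, at chr2:136769743-136769860 in Snap25-202 and chr2:136770057-136770174 in Snap25-201 (mm10, GENCODE M21 transcripts), and are known as exons 5a and 5b. Each is 118 bases long. They are printed 5′ to 3′, with the 31 bases that differ in capitals and the 87 shared bases, 73.7%, in lower case.
Snap25-202, upstream exon: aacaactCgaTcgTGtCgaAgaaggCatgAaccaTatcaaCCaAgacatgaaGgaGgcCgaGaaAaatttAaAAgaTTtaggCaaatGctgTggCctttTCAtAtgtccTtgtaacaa
Snap25-201, downstream exon: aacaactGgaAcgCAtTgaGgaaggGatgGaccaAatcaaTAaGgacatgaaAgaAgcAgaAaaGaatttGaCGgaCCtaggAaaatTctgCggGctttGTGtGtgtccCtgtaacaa
Both exons were used in both libraries, at nearly equal shares. Snap25-201 held 50.7% of the gene's TPM in replicate 1 and 52.3% in replicate 2 by RSEM (51.5% ± 1.15, SD, n = 2), and Snap25-202 held 47.4% and 44.9% (46.2% ± 1.80). By kallisto, the second quantification of the same reads, the shares were 49.2% ± 1.22 and 48.6% ± 2.01. The downstream form led in both libraries by RSEM, whereas by kallisto the order of the forms turned between the libraries. The models also differ in their last exon, 1354 bases in Snap25-201 and 277 bases in Snap25-202, so the split is not read from the alternative exon alone. In the brain the upstream form is known to be replaced by the downstream form after birth.

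As a group the exocytosis genes were broadly present, at moderate levels. Of the 43, 38 reached at least 1 TPM in both libraries (88.4%), beside 54.2% of 22015 nuclear protein-coding genes. The median member had 6.36 TPM in replicate 1 and 6.51 TPM in replicate 2, against 2.04 and 1.92 TPM for nuclear protein-coding genes. Because the list was drawn up with earlier results of these data known, these comparisons describe the listed genes only. In a bulk gland, fewer cells of a type and less RNA per cell cannot be told apart. Together the members summed to 466 and 412 TPM, or 0.159% ± 0.0152 of all nuclear protein-coding TPM (SD, n = 2). The 5 that missed 1 TPM in at least 1 library were Syt13, Rab27b, Rph3a, Rims1 and, in replicate 2 only, Sv2c. Member counts ran from 20 to 2810 in replicate 1 and from 15 to 2923 in replicate 2.

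**Figure D1:**
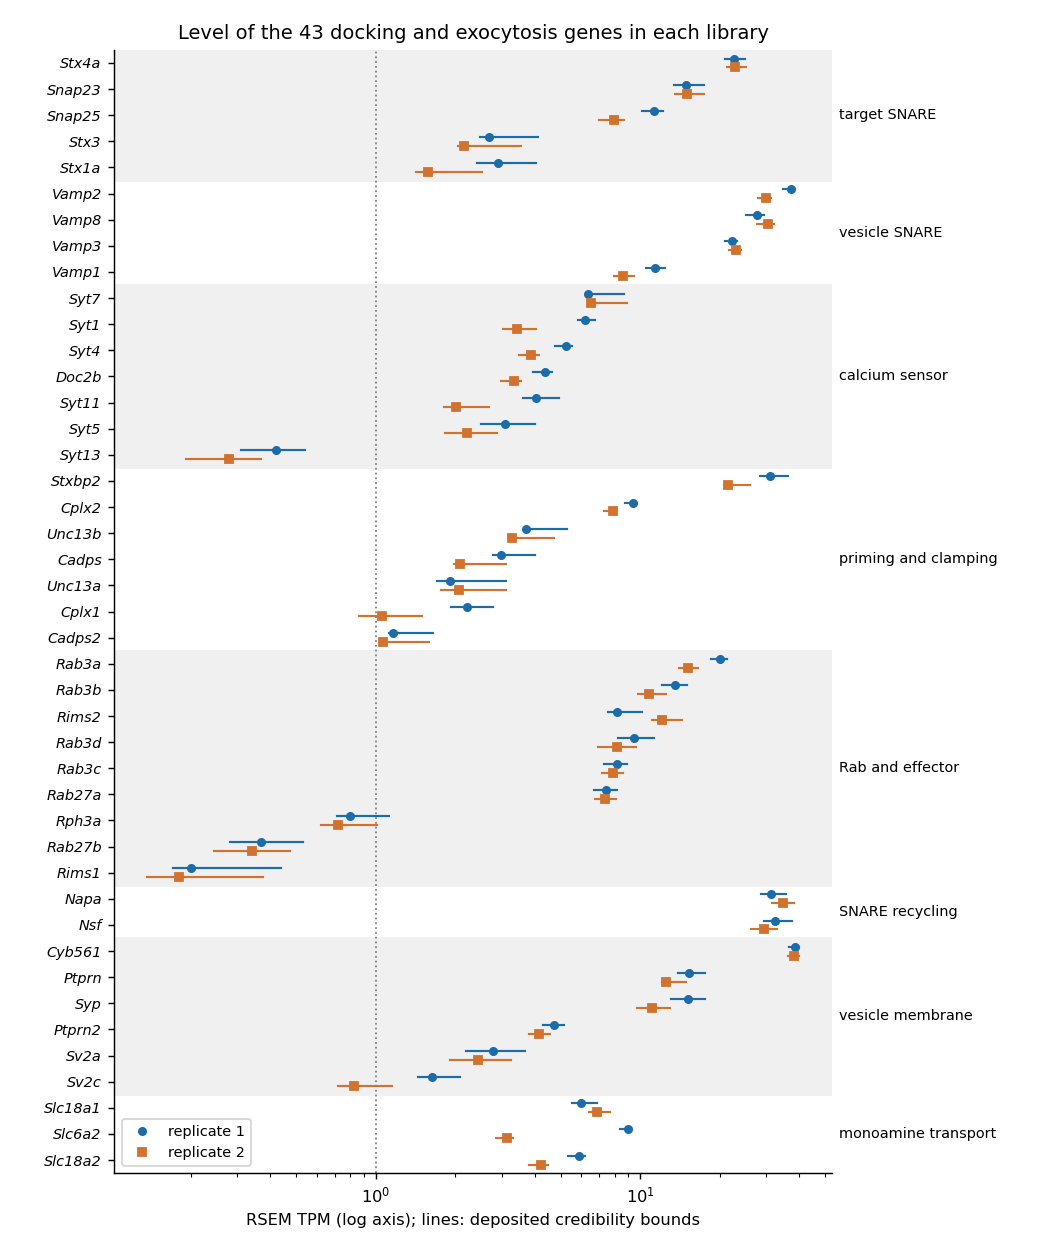
TPM of each of the 43 genes in replicate 1 and replicate 2 on a log axis, grouped by role, with the deposited credibility bounds as lines and a dotted line at 1 TPM. Cyb561 (38.6 and 38.3 TPM) and Vamp2 (37.1 and 29.96 TPM) sit at the top, and Rims1 (0.20 and 0.18 TPM) at the bottom.

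Among the target-membrane SNAREs, by whole-gene TPM, the broadly used Stx4a and Snap23 were higher than the neuroendocrine Stx1a and Snap25. Stx4a, a plasma-membrane syntaxin of many cell types, had 22.6 TPM in replicate 1 and 22.8 TPM in replicate 2. Stx1a, the syntaxin of synapses and chromaffin granule release, had 2.89 and 1.58 TPM. Its protein-coding transcripts held 28.4% and 28.9% of the gene by RSEM, but 36.6% and 55.3% by kallisto. The 2 libraries of Stx4a lay far above both of Stx1a, by a log2 ratio of 3.41 ± 0.62 (SD, n = 2), or 10.6-fold. Stx3, a syntaxin of apical membranes and secretory granules, had 2.69 and 2.15 TPM and could not be ranked against Stx1a, because their log2 ratio was 0.10 in replicate 1 and -0.44 in replicate 2. Snap23, the broadly expressed relative of Snap25, had 14.9 and 15.1 TPM. Snap25 itself had 11.3 and 7.93 TPM, below Snap23 in each library, with a log2 ratio of -0.66 ± 0.37. By kallisto the gap was wider, at a log2 ratio of -1.42. Protein-coding transcripts held 64.9% and 68.8% of Snap23 by RSEM, but 98.1% and 97.2% of Snap25. The order is thus one of whole-gene TPM and need not hold for the coding transcripts.

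The vesicle SNAREs were the most abundant role group, taking 21.7% ± 0.846 of the summed member TPM. Vamp2, the synaptobrevin of synaptic vesicles and dense-core granules, led with 37.1 TPM in replicate 1 and 29.96 TPM in replicate 2. Vamp8, a SNARE of endosomes and of granules in exocrine and blood cells, had 27.6 and 30.4 TPM and lay above Vamp2 in replicate 2 by a log2 ratio of only 0.02. Vamp3, or cellubrevin, the SNARE of recycling endosomes, had 22.3 and 23.1 TPM. Vamp2 exceeded Vamp3 in each library, by a log2 ratio of 0.55 ± 0.25. Vamp1, which replaces Vamp2 at some synapses, was the lowest of the 4 at 11.3 and 8.58 TPM. Vamp2 exceeded Vamp1 by 1.76 ± 0.07 on the log2 scale, or 3.38-fold, one of the steadier ratios. The 4 vesicle SNAREs and 5 target SNAREs together took 33.6% ± 1.07 of the summed member TPM.

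Vamp1 transcripts differ in the coding end of the membrane anchor, and more than 1 end was present. Vamp1-203 held 42.1% ± 1.91 of the gene's TPM by RSEM, Vamp1-201 held 23.9% ± 0.61 and Vamp1-202 held 11.8% ± 3.14 (SD, n = 2). By kallisto the shares were 47.1%, 16.2% and 9.39%, in the same order. The coding ends of the 2 leading forms are printed 5′ to 3′ from the plus strand of chromosome 6 (mm10, GENCODE M21), starting at base 125219586, with the 52 bases they share in lower case and the bases of each form's own end, 11 and 14, in capitals.
Vamp1-203: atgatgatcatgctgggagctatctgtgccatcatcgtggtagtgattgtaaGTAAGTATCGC
Vamp1-201: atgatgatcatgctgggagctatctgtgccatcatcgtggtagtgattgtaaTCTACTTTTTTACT
In Vamp1-203 the reading frame runs past the splice site at the end of the shared stretch, whereas Vamp1-201 splices there to a further exon. Coding lengths were close, 351 bases in Vamp1-203 and 354 bases in Vamp1-201.

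Of the synaptotagmins and related C2-domain proteins, Syt7, the slow calcium sensor with high affinity, was the steadiest. It had 6.36 TPM in replicate 1 and 6.51 TPM in replicate 2. Syt1, the fast sensor of synaptic and granule release, had 6.20 and 3.41 TPM, from 930 and 517 counts. Syt1 equalled Syt7 closely in replicate 1, with a log2 ratio of -0.04, and lay below it in replicate 2, at -0.93. Syt4 and Syt11, synaptotagmins whose first C2 domain lacks a calcium-binding residue, had 5.24 and 3.88 TPM and 4.03 and 2.02 TPM. Syt1 and Syt4 exchanged order between the libraries, with log2 ratios of 0.24 and -0.19. Doc2b, a calcium-binding C2 protein of spontaneous and granule release, had 4.36 and 3.33 TPM. Syt5, another calcium-binding synaptotagmin, had 3.08 and 2.21 TPM, and Syt13, which lacks calcium binding, had 0.42 and 0.28 TPM. Every gene of this role except Syt7 was lower in replicate 2. With a mean of at least 1 TPM this was 5 of 6 genes, beside 62.5% of nuclear protein-coding genes. The bounds of Syt5 and Syt13 overlapped, and Syt13 rested on 51 and 36 counts.

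Syt7 was steady in level but not in its estimated transcript mix. Syt7-202, with 12 coding exons and 1833 coding bases, held 57.95% of the gene's TPM in replicate 1 and 49.5% in replicate 2 by RSEM. Syt7-201, with 9 coding exons and 1209 coding bases, held 27.2% and 39.9%. The longer form has 3 extra coding exons of 624 bases in all, in the linker known for alternative splicing. By kallisto the longer form held 49.5% in replicate 1 and 38.6% in replicate 2, and the shorter 27.7% and 42.5%. Both quantifications placed more of the shorter form in replicate 2, and by kallisto it led there.

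The priming proteins were led by Stxbp2, or Munc18-2, which binds syntaxins in mast cells, platelets, lymphocytes and epithelia. It had 30.9 TPM in replicate 1 and 21.5 TPM in replicate 2, bounds apart, from 1173 and 1110 counts. Its leading transcript by RSEM, the coding Stxbp2-201, had 13.1 and 12.2 TPM. Protein-coding transcripts held 49.5% and 67.6% of the gene, and Stxbp2-214, a retained intron of 219 bases, had 3.68 and 0 TPM. The RSEM difference was thus small in the leading coding form. By kallisto the gene had 59.4 and 46.6 TPM, and Stxbp2-201 had 14.9 and 12.7 TPM. Lymphocyte markers also differed, with a sum of 50.1 TPM in replicate 1 against 6.54 TPM in replicate 2 and all 4 genes lower there. Platelet markers summed to 12.1 and 8.46 TPM, with 2 of 3 genes lower in replicate 2. Mast cell markers summed to 5.79 and 5.76 TPM. The part of any of these in the Stxbp2 difference was not tested. The Munc13 genes, which open syntaxin for assembly, were low. Unc13b had 3.69 and 3.27 TPM and Unc13a had 1.91 and 2.07 TPM, so that Unc13b, whose product also occurs outside the brain, was higher in each library (log2 ratio of Unc13a to Unc13b -0.80 ± 0.21). Exons of Unc13a overlap those of Colgalt1 on the opposite strand, which had 16.5 and 16.2 TPM, and its leading transcript by mean RSEM TPM was a retained intron. Cadps, the CAPS protein of dense-core granule priming in chromaffin cells, had 2.99 and 2.08 TPM. Its paralog Cadps2 had 1.16 and 1.07 TPM, so that Cadps exceeded it 2.24-fold (log2 ratio 1.16 ± 0.29). The complexins, which clamp and assist the SNARE complex, were uneven: Cplx2 had 9.43 and 7.89 TPM and Cplx1 had 2.21 and 1.06 TPM. Cplx2 exceeded Cplx1 5.64-fold (log2 ratio 2.49 ± 0.57, and 1.90 with a pseudocount of 1). Cplx1 rested on 152 and 79 counts.

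All 4 Rab3 GTPases, which guide vesicles to the release site, were present. Rab3a had 19.99 TPM in replicate 1 and 15.2 TPM in replicate 2. Rab3b had 13.5 and 10.8 TPM. Rab3d had 9.49 and 8.14 TPM, and Rab3c had 8.16 and 7.92 TPM. Rab3a was the highest in each library, by log2 ratios of 0.53 ± 0.06 over Rab3b, 0.99 ± 0.12 over Rab3d and 1.12 ± 0.25 over Rab3c, while Rab3d and Rab3c differed by less than the replicate spread of Rab3d. Exons of Rab3a overlap those of Mpv17l2 on the opposite strand, which had 32.7 and 30.5 TPM. The Rab27 genes, which recruit effectors to granules, were far apart. Rab27a had 7.46 and 7.39 TPM and Rab27b had 0.37 and 0.34 TPM, a log2 ratio of 4.39 ± 0.08, or 20.9-fold, and 2.64 with a pseudocount of 1. Rph3a, which binds Rab3 and Rab27, had 0.80 and 0.72 TPM.

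Of the long RIM genes, whose products are Rab3 effectors that organise the release site, Rims2 was far above Rims1. Rims2 had 8.16 TPM in replicate 1 and 12.1 TPM in replicate 2, from 800 and 1123 counts. Rims1 had 0.20 and 0.18 TPM, from 20 and 15 counts. The log2 ratio of Rims2 to Rims1 was 5.71 ± 0.51, or 52.3-fold, and 3.20 with a pseudocount of 1. Much of the Rims2 signal came from a short form. Rims2-204, with 6 coding exons and 855 coding bases, held 45.6% and 46.6% of the gene's TPM by RSEM and 51.8% and 52.7% by kallisto. It shares 5 coding exons with Rims2-202, a long form of 27 exons and 4590 coding bases. Rims2-204 had 3.72 TPM in replicate 1 and 5.62 TPM in replicate 2, whereas Rims2-202 had 1.02 and 0.95 TPM and Rims2-206, also long, had 0.91 and 0.83 TPM. A noncoding transcript of 458 bases, Rims2-207, had 1.80 and 3.67 TPM. The difference between the libraries was thus seen in the short forms and not in these long ones. Kallisto placed it there too, at 5.17 and 7.49 TPM for Rims2-204 and 2.00 and 1.76 TPM for Rims2-202. Rims4, a relative of Rims2 known to encode only a short RIM, was higher than Rims2, at 19.2 and 25.03 TPM.

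The recycling pair was high and even. Nsf, the ATPase that separates used SNARE complexes, had 32.5 TPM in replicate 1 and 29.3 TPM in replicate 2. Napa, or alpha-SNAP, its adaptor, had 31.3 and 34.5 TPM by RSEM. Napa depended on the quantification, with 91.3 and 92.4 TPM by kallisto, of which the retained-intron transcript Napa-206 held 28.0 and 24.3 TPM, against 2.72 and 2.41 TPM by RSEM. Over the members the median ratio of kallisto to RSEM TPM was 1.55 in replicate 1 and 1.52 in replicate 2, close to the 1.53 and 1.51 of nuclear protein-coding genes.

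Cyb561, the cytochrome that carries electrons from ascorbate across the chromaffin granule membrane, was the highest of all 43 genes by RSEM. It had 38.6 TPM in replicate 1 and 38.3 TPM in replicate 2 (38.5 ± 0.23, SD, n = 2). Syp, or synaptophysin, a protein of small clear vesicles, had 15.2 and 11.1 TPM. By RSEM its leading coding transcript, Syp-201, had 8.91 and 8.40 TPM, and Syp-206, a noncoding transcript of 433 bases, had 5.71 and 2.46 TPM. By kallisto Syp-206 was at 0 in both libraries, and Syp-201 had 13.7 and 12.2 TPM. The dense-core granule proteins Ptprn and Ptprn2, receptor-like phosphatases without known catalytic activity on protein tyrosine, had 15.2 and 12.5 TPM and 4.74 and 4.15 TPM. Ptprn exceeded Ptprn2 3.12-fold in a steady ratio (log2 1.64 ± 0.06). The SV2 vesicle glycoproteins were low, with 2.77 and 2.43 TPM for Sv2a and 1.64 and 0.83 TPM for Sv2c. All 6 vesicle membrane genes were lower in replicate 2, beside 62.5% of nuclear protein-coding genes averaging 1 TPM or more. The bounds lay apart only for Syp and Sv2c, and those of Sv2a, Ptprn, Ptprn2 and Cyb561 overlapped. The group held 16.8% of the summed member TPM in each library.

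The vesicular monoamine transporters, which load catecholamines into granules, were both present. Slc18a1, the endocrine form, had 5.98 TPM in replicate 1 and 6.88 TPM in replicate 2. Slc18a2, the form of neurons and also of some chromaffin cells, had 5.85 and 4.22 TPM. Slc18a1 was level with Slc18a2 in replicate 1 (log2 ratio 0.03) and above it in replicate 2 (0.71). Slc6a2, the plasma-membrane noradrenaline transporter, had 8.98 and 3.13 TPM, from 1757 and 663 counts, and its deposited credibility bounds were 8.39 to 9.22 TPM and 2.84 to 3.31 TPM. The libraries were thus 2.87-fold apart, the widest ratio among members with a mean of at least 5 TPM, and kallisto gave 13.1 and 4.48 TPM, or 2.92-fold.

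**Figure D2:**
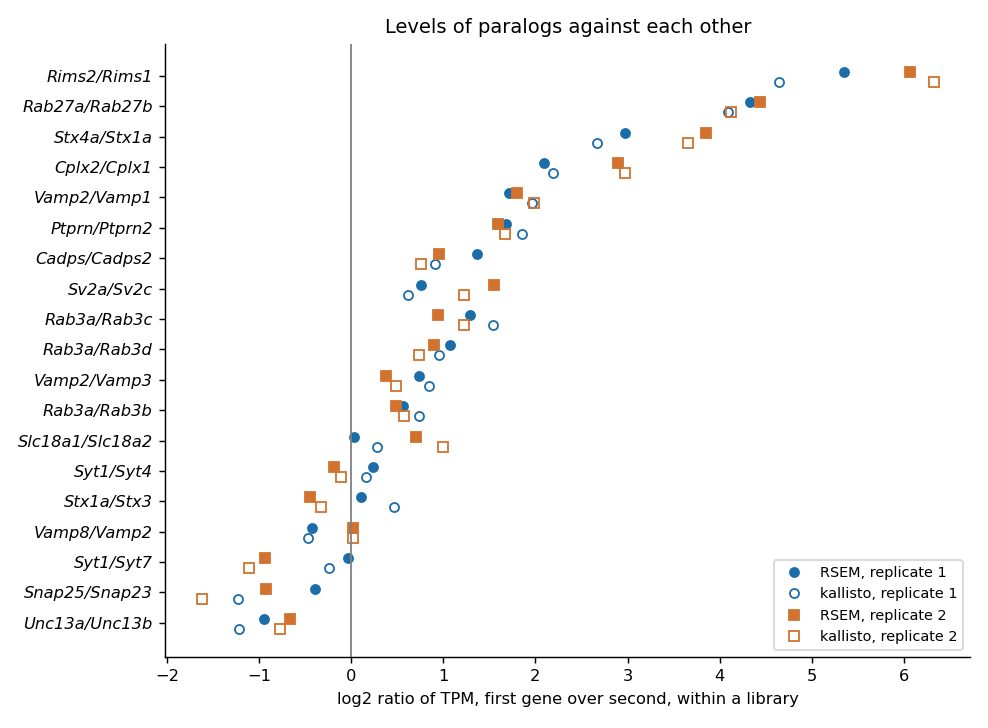
Log2 ratio of TPM between paralogs, for 19 pairs in replicate 1 (circles) and replicate 2 (squares), filled for RSEM and open for kallisto. By RSEM 16 pairs have both libraries on the same side of 0, and Stx1a/Stx3, Vamp8/Vamp2 and Syt1/Syt4 straddle it.

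Over the 19 paralog pairs, 16 kept their order in both libraries. Of these, Syt1/Syt7 (-0.04) and Slc18a1/Slc18a2 (0.03) were nearly level in replicate 1. Some genes, such as Vamp2 and Rab3a, stand in several pairs, so the pairs are not separate observations. The order of the mean was the same by kallisto in 18 of 19, the exception being Stx1a against Stx3. The pairs with the widest ratios, Rims2 to Rims1, Rab27a to Rab27b, Stx4a to Stx1a and Cplx2 to Cplx1, were all of this kept kind. That follows from ratios so wide beside their SDs and is no separate evidence.

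Between the libraries the exocytosis genes were more often higher in replicate 1. With a mean of at least 5 TPM, only Slc6a2 was over 2-fold apart, 1 of 24 members (4.17%), beside 2.75% of 8314 nuclear protein-coding genes in either direction and 0.481% with replicate 1 higher. With a minimum mean of 1 TPM, Slc6a2 and Cplx1 were over 2-fold apart, 2 of 39, beside 5.89% of 12535 in either direction and 2.52% with replicate 1 higher. These shares rest on 1 or 2 members each. Of those 39, 30 were higher in replicate 1 (76.9%), beside 62.5% of nuclear protein-coding genes. Among the 24 members averaging 5 TPM or more the count was 16 (66.7%), beside 60.9%. By kallisto at the minimum of 1 TPM it was 33 of 40 (82.5%), beside 65.0%. On the log2(TPM + 1) scale, replicate 2 minus replicate 1 had a median of -0.23 over the members and -0.06 over nuclear protein-coding genes; this scale understates the change of low genes.

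The deposited credibility bounds, which belong to the posterior mean TPM (7.54 and 7.71 for Syt7, above its TPM) and describe a single library, lay apart with replicate 1 higher for 15 of 39 members (38.5%), beside 11.6% of nuclear protein-coding genes. These were Snap25, Vamp1, Vamp2, Syt1, Syt4, Syt11, Doc2b, Stxbp2, Cplx1, Cplx2, Rab3a, Sv2c, Syp, Slc18a2 and Slc6a2. Rims2 was the only member with bounds apart and replicate 2 higher, 1 of 39 beside 8.9%. The other members of these 39 had overlapping bounds. They were the SNAREs Snap23, Stx1a, Stx3, Stx4a, Vamp3 and Vamp8, the recycling genes Nsf and Napa, and the transporter Slc18a1. The rest were Syt5, Syt7, Unc13a, Unc13b, Cadps, Cadps2, Rab3b, Rab3c, Rab3d, Rab27a, Sv2a, Ptprn, Ptprn2 and Cyb561. By role, the median difference was lowest for monoamine transport (-0.39 over 3 genes) and the calcium sensors (-0.35 over 6), and nearest to 0 for SNARE recycling (-0.0024 over 2, with Nsf lower and Napa higher in replicate 2).

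Neuron markers were also mostly lower in replicate 2, whereas chromaffin markers were mixed. Of the 6 neuron genes, 5 were lower in replicate 2, with a median difference of -0.68. Prph, a peripheral neuron filament, had 6.71 TPM in replicate 1 against 1.75 TPM in replicate 2, the widest ratio of the 6. Elavl4, a neuronal RNA-binding protein, had 2.55 and 1.03 TPM. The exception was Rbfox3, with 1.23 and 1.36 TPM. The 7 chromaffin genes had a median difference of -0.08, near the -0.06 of nuclear protein-coding genes. Of these 5 were lower in replicate 2, with Dbh, the enzyme that makes noradrenaline, at 105 and 90.1 TPM and Pnmt, which makes adrenaline, at 205 and 185 TPM. The granule proteins Chga (408 and 421 TPM) and Chgb (455 and 508 TPM) were higher in replicate 2, as was the sum over the list. The part of neuronal RNA, or of the liver and lymphocyte differences, in the lower values of replicate 2 was not tested.

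**Figure D3:**
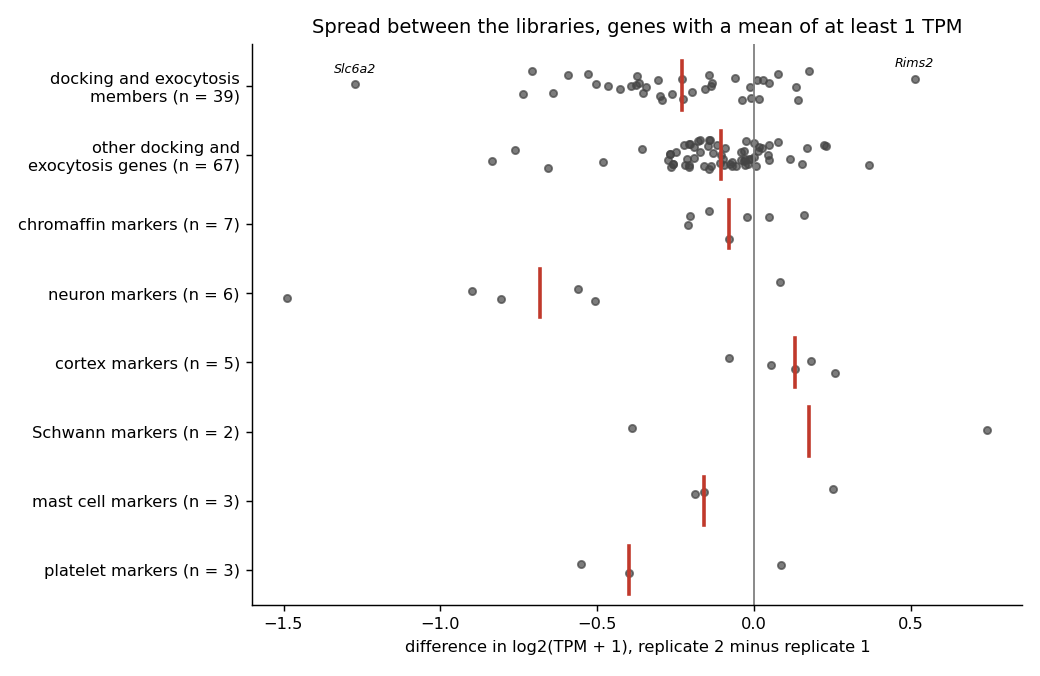
Log2(TPM + 1) of replicate 2 minus that of replicate 1 for genes of at least 1 TPM on average, with a point for each gene of the members, the other exocytosis genes and 6 marker lists, and a red line at each median. The members' median is -0.23, against -0.11 for the other exocytosis genes and -0.68 for neuron markers, with Slc6a2 lowest at -1.27 and Rims2 highest at 0.51.

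The transcript tables named 260 transcripts for the 43 genes, from 1 for 4 of the genes up to 16. The leading transcript was the same in both libraries for 37 genes by RSEM and 35 by kallisto. It was the same by both quantifications for 33 genes. Of the other 10, Syt11, Rab3a, Rab27a and Slc6a2 exchanged transcripts with the same coding sequence. Rab27a-201 held 81.8% and 86.5% of the gene by RSEM but 30.0% and 28.9% by kallisto, which gave most to Rab27a-203. For Slc6a2 the forms differ in their first exon, at chr8:92960079-92960181 in Slc6a2-202 and chr8:92960933-92961521 in Slc6a2-201 (mm10, plus strand). Slc6a2-202 held 74.9% and 73.8% by RSEM but 22.6% and 0.04% by kallisto, so the start site in use cannot be read from these tables, although the gene's total differed between the libraries in both. For Ptprn2 the coding transcript Ptprn2-201 held 47.5% and 61.7% by RSEM, and Ptprn2-204, annotated as a target of nonsense-mediated decay, held 52.3% and 37.3%; by kallisto Ptprn2-204 held 31.4% and 35.7%.

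**Figure D4:**
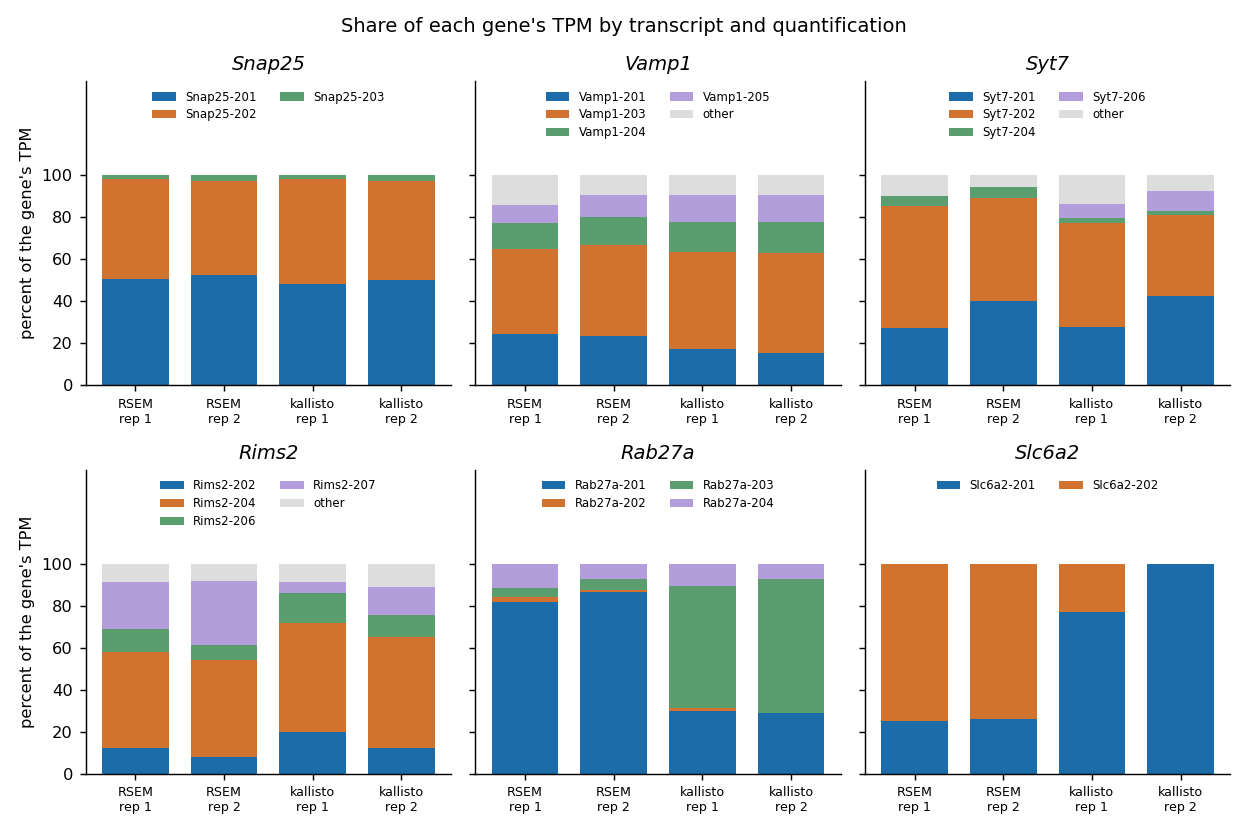
Percent of each gene's TPM held by its transcripts for Snap25, Vamp1, Syt7, Rims2, Rab27a and Slc6a2, in each library by RSEM and by kallisto. Snap25 splits near evenly in all 4 bars, whereas Rab27a and Slc6a2 change their leading form with the quantification.

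A further 90 docking and exocytosis genes outside the list were measured for comparison. Of these, 66 reached 1 TPM in both libraries (73.3%), beside 54.2% of nuclear protein-coding genes. Their median level was 4.09 TPM, against 6.43 TPM for the median of the members' mean TPM. The 10 highest were Tmed10 (64.1 TPM, a cargo receptor of the early secretory pathway), Stx7, Sec22b, Stx5a, Dnajc5, Rims4, Scamp3, Ykt6, Vti1b and Syngr2, the last at 18.3 TPM. Most of the 10 serve transport steps inside the cell. None of 44 with a mean of at least 5 TPM was over 2-fold apart, and at 1 TPM only Myrip (3.55 and 1.55 TPM) and Syngr3 (1.53 and 0.49 TPM) were, both higher in replicate 1. The other docking genes were also more often higher in replicate 1, 52 of 67 (77.6%), beside 62.5% of nuclear protein-coding genes. Their median difference was -0.11, beside -0.06. Their bounds lay apart with replicate 1 higher for 6 of 67 (8.96%) and with replicate 2 higher only for Rims4, 1 of 67 (1.49%), both under the 11.6% and 8.9% of nuclear protein-coding genes.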

How the data were processed

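The 2 adrenal gland libraries of 1 group were analysed. Per the file headers, the gene and transcript tables of the authors hold RSEM expected counts, TPM, posterior mean TPM with credibility bounds (a signal per gene) and transcript percent (IsoPct), and separate tables hold kallisto estimated counts and TPM. The build is mm10 per the labels; gene and transcript IDs matched GENCODE M21. The aligner, tool versions and strand setting were not given in the sources used here. Counts were whole for 42 of 43 members (tolerance 0.005), Syt11 being the exception.

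From these values, TPM was set side by side across libraries, with a pseudocount of 1 for log2 differences (Python 3.11.15, pandas 2.3.3, numpy 2.4.6). Detection meant at least 1 TPM in both libraries. Background shares are over 22015 nuclear protein-coding genes. SDs cover 2 libraries, and no p-value was computed, since there is 1 group. Of the steps, only the 2-fold rule was tested on simulated data. All 43 members were named, with the 10 highest other pathway genes and those over 2-fold apart, and a selection from the marker lists. The members, pathway list and marker lists were chosen with earlier results of these data known. Alternatives were kallisto TPM, posterior mean TPM, other minima, pseudocounts and scalings, and leaving out each library. Exons of 12 members overlap exons of another gene, 11 of them on the opposite strand. For 33 members under 1% of 31-base stretches occur in another gene, and for Vamp3 and Syt11 7.95% and 7.23% do, so reads of these may be split. Promoters (250 bases before to 50 after the start) came from RefSeq, GRCm38.p6, and matched 30 members.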

Additional observations from a re-analysis of the deposited data

How the results depend on the processing

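The count of 38 members detected in both libraries became 22 at a minimum of 5 TPM and was 38 to 39 with either library left out. The count over 2-fold apart, 1 at a mean of at least 5 TPM, was 2 both at 1 TPM and with no minimum. The members' median difference of -0.23 stayed negative: it was -0.28 with a pseudocount of 0.1, -0.26 by kallisto, -0.20 with no minimum, -0.31 when scaled to the ERCC spike-ins and -0.18 when scaled by the median of ratios. The median member level of 6.43 TPM was 10.5 TPM by kallisto, 6.62 TPM by posterior mean and 6.36 to 6.51 TPM with a library left out. Of the paralog ratios, Stx1a/Stx3 reversed by kallisto (0.0673) and ran from -0.44 to 0.10 with a library left out; Vamp8/Vamp2 ran from -0.43 to 0.0215 and Syt1/Syt4 from -0.19 to 0.24. By kallisto 10 of 19 ratios moved by less than the replicate SD and 8 by more, without a change of sign; with a pseudocount of 1, 12 moved by less and 7 by more. The cause of these changes was not tested. With 2 libraries, SDs are imprecise, and Rims1 (20 and 15 counts), Rab27b (52 and 45) and Syt13 (51 and 36) were limited by depth. No paired analysis was possible because all samples belong to 1 group.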

Other observations

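The exocytosis genes spanned more of the genome than most. The median gene span was 35117 bases, against 17338 bases for nuclear protein-coding genes, and 11 of 43 (25.6%) exceeded 100000 bases, against 11.3%. Vamp2 was the shortest at 3895 bases and Ptprn2 the longest at 791130 bases. The genes lay on 18 chromosomes.

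In the promoter windows of the 30 matched members, searched on both strands, the GC box GGGCGG occurred in 23 (76.7%), beside 51.0% of 16522 protein-coding genes. The CRE, TGACGTCA, occurred in 2, Napa and Slc18a2 (6.67%), beside 2.64%. TATAAA occurred in 2, Rab3b and Stx3 (6.67%), beside 14.3%. The core of RE1, the element bound by the REST repressor, was found in none, beside 0.0545%. The median CpG ratio of observed to expected was 0.695 in members and 0.584 in protein-coding genes. Matches are letters in a window and show no binding.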
